A study of Mus musculus with 15 samples.

Results

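Acute phase proteins are plasma proteins whose output by the liver changes during inflammation. The 10 genes described here were the serum amyloid A genes Saa1, Saa2, Saa3 and Saa4, the orosomucoid genes Orm1 and Orm2, and Lcn2, Hp, Hpx and Apcs. They were found by matching the Ensembl gene IDs of the count table to these symbols. All 10 of 10 were present among 56980 IDs, and all 10 passed the filter on low counts, as did 14627 genes in the whole table. The RNA came from livers of male wild-type (WT) mice of the c57bl6j strain, C57BL/6J in its usual spelling. At 15 weeks of age the mice were put for 9 months on a ketogenic diet with 89.9% fat (5 libraries), a high-fat diet with 60% fat (5 libraries) or a control diet with 10% fat (4 libraries used). All groups were wild type and carried the tag ALF in their labels, which the labels do not define. A control library, replicate 1, was set aside by the submitters as contaminated and enters no comparison here. Nothing in the labels states that every library came from its own mouse. The p-values therefore rest on differences among libraries, which may in part be technical.

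During an acute phase response, interleukin-6 and interleukin-1 reach the hepatocyte and act through STAT3, NF-kappaB and C/EBP factors on the promoters of secreted protein genes. Positive acute phase genes are those whose output then goes up, and negative ones, such as albumin, go down. In mice the serum amyloid A genes Saa1 and Saa2 are the most inducible of them, and Saa4 is regarded as a constitutive form. Saa3 and Lcn2 are also made outside hepatocytes, in macrophages, adipocytes and, for Lcn2, neutrophils.

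The promoters of the genes whose levels or copy ratios differed between diets are shown because the near-identical copies Saa1 and Saa2, and Orm2 and Orm3, share most of their proximal sequence as well as their transcripts. Each window runs from 250 bases before to 50 bases after the start site and is taken from RefSeq on build GRCm38.p6. The positions, 5′ to 3′ on the strand of the gene, are chr7:46742931-46743230 on the minus strand for Saa1, chr7:46751583-46751882 on the plus strand for Saa2 and chr7:46715627-46715926 on the minus strand for Saa3. They are chr4:63362199-63362498 on the plus strand for Orm2, chr4:63355908-63356207 on the plus strand for Orm3 and chr2:32387690-32387989 on the minus strand for Lcn2. Capitals mark matches to the C/EBP motif TTGCNNAA on either strand, and in Orm3 also 1 match to the interleukin-6 response motif CTGGGAA on the opposite strand.
Saa1: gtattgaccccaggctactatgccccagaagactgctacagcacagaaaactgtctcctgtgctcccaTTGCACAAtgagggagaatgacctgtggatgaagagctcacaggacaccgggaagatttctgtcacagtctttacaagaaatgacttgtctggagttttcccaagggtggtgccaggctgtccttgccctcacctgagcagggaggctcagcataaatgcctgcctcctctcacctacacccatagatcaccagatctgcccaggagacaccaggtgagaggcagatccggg
Saa2: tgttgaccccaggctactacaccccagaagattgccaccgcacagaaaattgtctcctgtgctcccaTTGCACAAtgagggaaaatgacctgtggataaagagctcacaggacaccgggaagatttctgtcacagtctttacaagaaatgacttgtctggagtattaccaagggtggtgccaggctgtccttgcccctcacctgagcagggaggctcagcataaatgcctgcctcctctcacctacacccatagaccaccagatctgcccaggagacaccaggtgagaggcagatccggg
Saa3: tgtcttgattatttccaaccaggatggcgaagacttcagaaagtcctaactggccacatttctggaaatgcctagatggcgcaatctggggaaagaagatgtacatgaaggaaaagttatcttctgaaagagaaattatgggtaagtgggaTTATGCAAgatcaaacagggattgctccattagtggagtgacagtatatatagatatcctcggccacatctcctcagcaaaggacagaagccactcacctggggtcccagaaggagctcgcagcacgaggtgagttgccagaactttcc
Orm2: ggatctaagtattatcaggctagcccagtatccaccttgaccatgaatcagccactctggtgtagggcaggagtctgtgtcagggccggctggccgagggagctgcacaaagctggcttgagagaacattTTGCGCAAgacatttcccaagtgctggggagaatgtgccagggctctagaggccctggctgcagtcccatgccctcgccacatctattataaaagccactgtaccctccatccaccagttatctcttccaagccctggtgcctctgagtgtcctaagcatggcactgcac
Orm3: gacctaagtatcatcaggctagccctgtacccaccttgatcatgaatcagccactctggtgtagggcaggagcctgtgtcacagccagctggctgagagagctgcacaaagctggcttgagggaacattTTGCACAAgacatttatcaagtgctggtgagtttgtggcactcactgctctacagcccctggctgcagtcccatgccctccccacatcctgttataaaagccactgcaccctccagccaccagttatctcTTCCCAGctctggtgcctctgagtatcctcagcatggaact
Lcn2: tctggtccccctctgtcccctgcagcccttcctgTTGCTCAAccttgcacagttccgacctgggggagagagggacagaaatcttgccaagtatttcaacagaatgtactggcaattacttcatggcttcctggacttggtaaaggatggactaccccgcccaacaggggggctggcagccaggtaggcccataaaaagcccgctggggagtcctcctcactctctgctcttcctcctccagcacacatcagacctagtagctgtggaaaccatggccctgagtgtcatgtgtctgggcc

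Promoter windows were found for 8 of the 10 members and for Orm3, and 7 of the 8 member windows held the C/EBP motif. Of all 32851 promoter windows of this length, 10.8% held it. Relative to the start site the match began at base -182 in Saa1, -183 in Saa2, -99 in Saa3, -120 in Orm2, -121 in Orm3 and -216 in Lcn2. These positions hold for the RefSeq start sites. The GENCODE gene record of Lcn2 starts at base 32388252 of chromosome 2, upstream of the whole Lcn2 window. Where the transcript used for its length starts was not looked up. The Saa1 and Saa2 windows were 95.99% identical over 299 aligned bases, and their C/EBP match had the same letters. The Orm2 and Orm3 windows were 89.15% identical over 295 aligned bases, with 1 base of the match different. The STAT3 motif TTCNNNGAA was in 1 member window, that of Apcs, and in 8.3% of all windows. The interleukin-6 response motif was in 1 member window, again that of Apcs, and in 11.1% of all windows. An NF-kappaB motif, GGG followed by any 2 bases and TTTCC, was in 0 of the 8 member windows and in 1.63% of all windows, which says only that these letters are not in these windows. All motifs were searched on both strands, no match of one overlapped a match of another in these windows, and a match is a description of letters only.

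The 14 libraries held 16329425 to 25349148 counts each. Values below are CPM, counts brought to a common library size, with scaling by the trimmed mean of M values (TMM) unless said otherwise. Fold changes and adjusted p-values come from edgeR's quasi-likelihood test in 1 fit over the 3 diets, with Benjamini-Hochberg adjustment over all 14627 genes and a threshold of 0.05. The ketogenic and the high-fat comparisons use the same 4 control libraries. In bulk tissue a lower level can mean fewer cells of a type or less RNA per cell, and the cases cannot be told apart. All 12 hepatocyte markers on the list were detected. Their summed level was 72968 to 123911 CPM in ketogenic livers and 93195 to 128146 CPM in high-fat livers. It was 136640 to 172317 CPM in control livers, so both fat-rich groups lay below every control. Most of the sum was Alb, the albumin gene, with a median of 104032 CPM in control livers, where the sum had a median of 148231 CPM. The markers did not all go the same way. Their median log2 fold change was -0.54 in ketogenic and -0.45 in high-fat against control livers. Fabp1 had higher medians, 3196 CPM in ketogenic and 2798 CPM in high-fat livers, against 2337 CPM in control livers. The part of the difference in hepatocyte markers in the results was not tested.

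In both fat-rich diets, Saa2, Saa3 and Lcn2 rose and no member fell past the threshold. These were 3 of 10 members in ketogenic against control livers, where 7.47% of all tested genes rose, 4.6% fell and 12.1% passed in either direction. They were also 3 of 10 in high-fat against control livers, where 6.95% of all tested genes rose, 5.01% fell and 12% passed in either direction. The median log2 fold change of the 10 members was 0.67 in ketogenic against control livers, beside 0.03 over all genes. It was 0.83 in high-fat against control livers, beside 0.01 over all genes. At an unadjusted p under 0.05 there were 5 members in the ketogenic comparison, 28% of all genes passing, and 7 in the high-fat comparison, 27.4% of all genes passing. Both counts include Orm1, which stood lower. DESeq2 called 5 members in the ketogenic comparison, with Saa1 (adjusted p = 0.0306) and a lower Orm1 (adjusted p = 0.0311) beside the same 3 genes. It called 4 in the high-fat comparison, with Orm2 (adjusted p = 0.0142) beside the same 3 genes. DESeq2 also called more of all genes, 2422 in the ketogenic and 2441 in the high-fat comparison, where edgeR called 1766 and 1749. Other settings gave fewer calls. Without the filter on low counts the count was 0 in ketogenic and 0 in high-fat against control livers, and with only the 2 diets compared in the fit it was 1 in ketogenic and 4 in high-fat against control livers. Of all genes, the unfiltered fit called 1401 in ketogenic and 1322 in high-fat against control livers. The fits of only the 2 diets called 1268 in ketogenic and 2518 in high-fat against control livers.

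**Figure D1:**
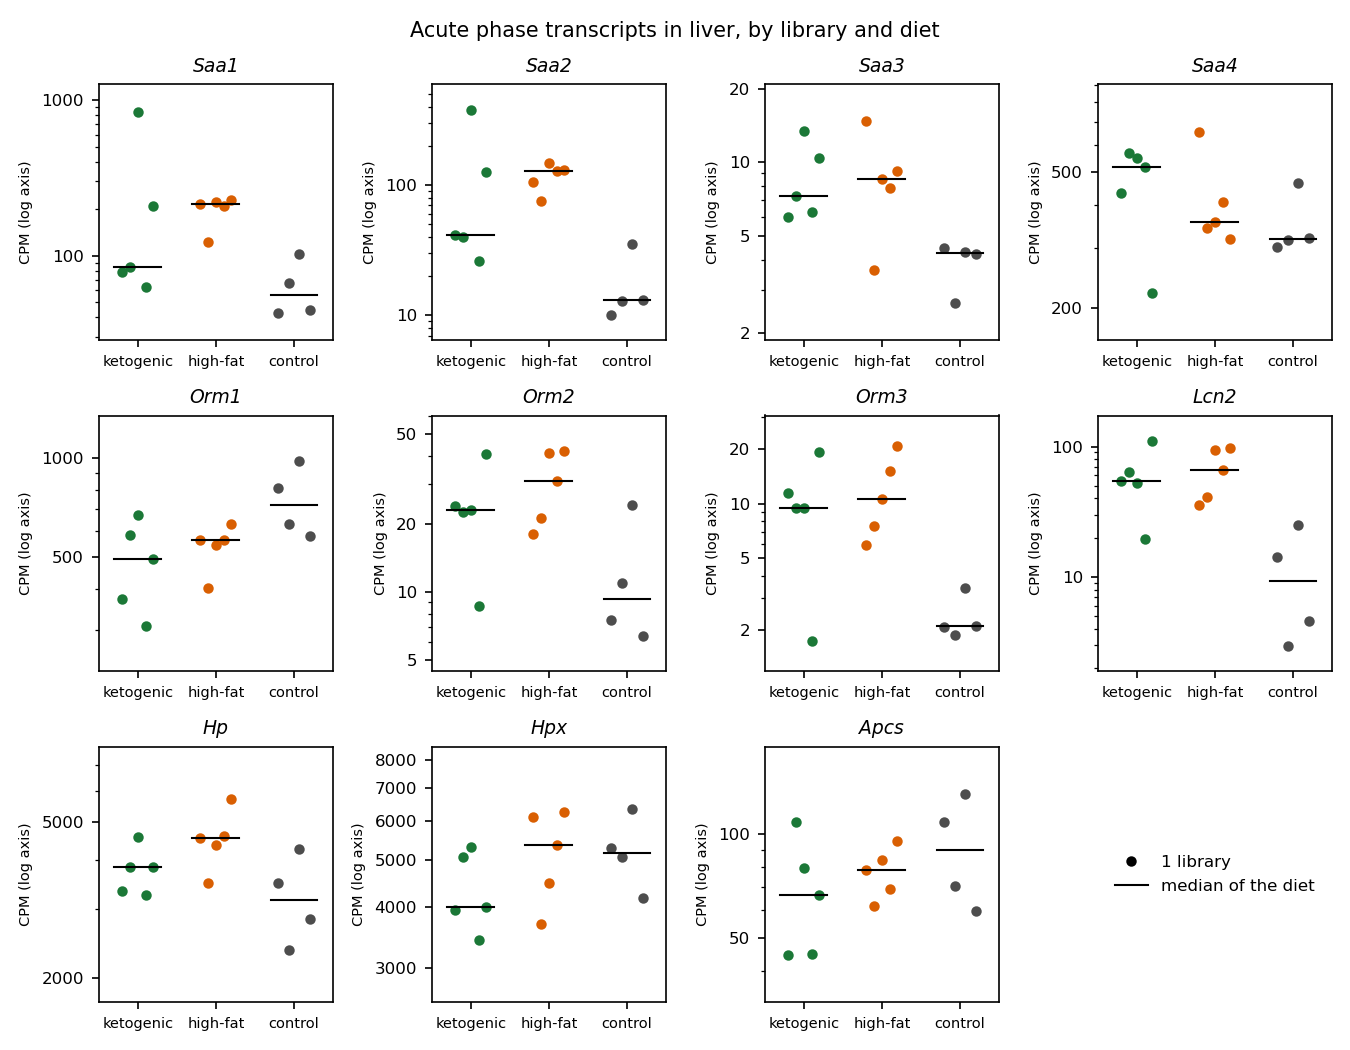
CPM on a log axis, 1 panel per gene, for ketogenic, high-fat and control livers; each point is 1 library and the line is the median of the diet. Saa2 and Lcn2 have the largest fold changes against control livers among the members, and ketogenic replicate 3 stands above all other libraries for Saa1 at 835 CPM. The copy Orm3 is added for comparison with Orm1 and Orm2.

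Saa1 and Saa2 encode the serum amyloid A proteins that travel on high-density lipoprotein during inflammation. Saa1 stood at 78.8, 83.9, 835, 62.3 and 209 CPM in ketogenic replicates 1 to 5, at 215, 122, 221, 207 and 229 CPM in high-fat replicates 1 to 5, and at 42.9, 66.9, 102 and 44.4 CPM in control replicates 2 to 5. Every high-fat library was above every control library, as for Saa2 and Lcn2, 3 of 10 members where 9.45% of all tested genes lay wholly above the controls, whereas ketogenic replicates 1, 2 and 4 fell within the range of the controls. Its log2 fold change was 1.99 ± 0.73 (SE) in ketogenic against control livers (edgeR adjusted p = 0.0975) and 1.63 ± 0.72 in high-fat against control livers (adjusted p = 0.163), so neither passed. The ketogenic mean of 254 ± 330 CPM (SD, n = 5) rests on replicate 3. Without that library the log2 fold change of Saa1 was 0.76 in ketogenic against control livers (adjusted p = 0.195) and 1.63 in high-fat against control livers (adjusted p = 0.0148). With only the high-fat and control libraries in the fit it was 1.62 (adjusted p = 0.00456).

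Saa2 stood at 41.2, 40.1, 381, 26.2 and 127 CPM in ketogenic livers, at 106, 75.1, 148, 129 and 131 CPM in high-fat livers, and at 10.0, 12.9, 35.1 and 13.2 CPM in control livers. Each high-fat library was above each control library. In ketogenic livers replicate 4 lay below control replicate 4, the highest control, and the other libraries lay above it. Saa2 rose by 2.79 ± 0.78 on the log2 scale in ketogenic against control livers (edgeR adjusted p = 0.0375), a fold of 6.90 with a 95% interval of 2.12 to 22.5. It rose by 2.72 ± 0.78 in high-fat against control livers (adjusted p = 0.0413), a fold of 6.61 with an interval of 2.03 to 21.5. Without ketogenic replicate 3 the value was 1.72 in ketogenic against control livers (adjusted p = 0.0451). The ketogenic call ended without any 1 of ketogenic replicate 5, high-fat replicates 3 and 4 and control replicates 2, 3 and 5, at adjusted p = 0.0514 to 0.105. The high-fat call ended without any 1 of high-fat replicates 2 to 5 and control replicates 2, 3 and 5, at adjusted p = 0.0548 to 0.110. With only the ketogenic and control libraries in the fit, the ketogenic value of Saa2 did not pass (adjusted p = 0.111).

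Because the Saa1 and Saa2 transcripts are 93.92% identical, reads may be shared between the copies. Of all 50-base stretches of the Saa1 transcript, 13.21% were also in that of Saa2. Summed into 1 row, the pair stood at 377 ± 479 CPM in ketogenic livers and 316 ± 69.4 CPM in high-fat livers (SD, n = 5 each), against 81.8 ± 38.5 CPM in control livers (n = 4). The log2 fold change of the sum was 2.20 ± 0.73 in ketogenic against control livers (edgeR adjusted p = 0.0700) and 1.95 ± 0.72 in high-fat against control livers (adjusted p = 0.0998), so the sum did not pass where Saa2 alone did. Without ketogenic replicate 3 the sum was at 1.03 in ketogenic against control livers (adjusted p = 0.109), and it passed in high-fat against control livers (adjusted p = 0.00923). Without ketogenic replicate 4 it passed in ketogenic against control livers (adjusted p = 0.0387). With only the 2 diets compared in the edgeR fit, the sum passed in high-fat against control livers (adjusted p = 0.00269). In that setting it did not pass in ketogenic against control livers (adjusted p = 0.161). DESeq2 called the sum in both comparisons, at adjusted p = 0.0140 in ketogenic and 0.0352 in high-fat against control livers.

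The share between the copies also differed between diets. Saa2 counts came to 52.2, 47.8, 45.6, 42.1 and 60.9% of Saa1 counts in ketogenic livers, to 49.5, 61.6, 67.0, 62.5 and 57.1% in high-fat livers, and to 23.4, 19.2, 34.5 and 29.7% in control livers. Both fat-rich groups lay wholly above the controls, and ketogenic replicate 3, with the highest level of both copies, had a ratio inside the range of its group. The means were 49.7 ± 7.25% in ketogenic livers, 59.5 ± 6.64% in high-fat livers and 26.7 ± 6.77% in control livers. An exact two-sided permutation test gave p = 0.00794 for each fat-rich diet against control, adjusted p = 0.0159 over 12 ratio tests, and this is the smallest p that 126 splits can give. Ketogenic against high-fat livers gave exact p = 0.0635 (adjusted p = 0.0952). The ratios were chosen after the values of the genes had been seen. The counting rule for reads that match both copies is not known, and its part in the ratios was not tested.

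**Figure D2:**
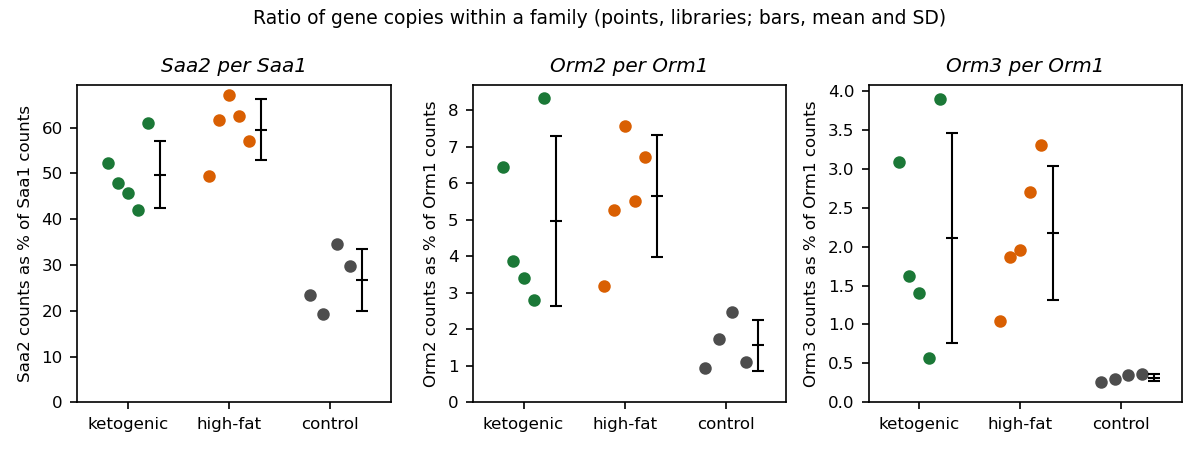
Counts of one gene copy as a percentage of the counts of another copy in the same library, for ketogenic, high-fat and control livers; points are libraries and bars show the mean and SD. The Saa2 per Saa1 and Orm2 per Orm1 ratios of every ketogenic and high-fat library lie above those of every control library.

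Saa3, an amyloid A form made chiefly outside the hepatocyte, was the least abundant member. It stood at 5.98, 7.25, 13.5, 6.25 and 10.4 CPM in ketogenic livers, at 14.7, 3.61, 8.51, 7.81 and 9.25 CPM in high-fat livers, and at 4.47, 2.65, 4.30 and 4.23 CPM in control livers. All ketogenic libraries were above all controls, the only such member in that comparison, where 7.38% of all tested genes lay wholly above the controls. High-fat replicate 2 lay within the control range. Saa3 rose by 1.15 ± 0.34 on the log2 scale in ketogenic against control livers (edgeR adjusted p = 0.0376) and by 1.17 ± 0.34 in high-fat against control livers (adjusted p = 0.0365). The fold was 2.22 in ketogenic and 2.24 in high-fat against control livers. The ketogenic call ended without any 1 of ketogenic replicates 3 and 5, high-fat replicate 3 and control replicates 2 to 5, at adjusted p = 0.0502 to 0.116. The high-fat call ended without any 1 of high-fat replicates 1, 3, 4 and 5 and control replicates 2 to 5, at adjusted p = 0.0557 to 0.112.

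Saa4, the constitutive form, ranged over 221 to 569 CPM in ketogenic livers and 318 to 656 CPM in high-fat livers, against 301 to 463 CPM in control livers. The groups overlapped. Its log2 fold change was 0.38 ± 0.26 in ketogenic against control livers (edgeR adjusted p = 0.360) and 0.25 in high-fat against control livers (adjusted p = 0.579). Saa4 counts came to 446 ± 344% of Saa1 counts in ketogenic livers and 217 ± 73.3% in high-fat livers, against 588 ± 143% in control livers. That ratio was lower in high-fat than in control livers (exact permutation p = 0.00794, adjusted p = 0.0159), with every high-fat library below every control. In ketogenic against control livers it gave exact p = 0.397, with ketogenic replicates 3 and 5 at 65.6% and 105% and the others at 549% or more. This ratio, too, was chosen after the values of Saa1 and Saa4 had been seen. It carries the Saa1 difference with it, which did not pass in high-fat against control livers (edgeR adjusted p = 0.163), and is no separate support for it.

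Lcn2, which encodes lipocalin 2, a binder of the siderophores with which bacteria take up iron, stood at 54.8, 63.4, 53.0, 19.6 and 111 CPM in ketogenic livers. It stood at 35.8, 41.4, 93.5, 66.6 and 97.1 CPM in high-fat livers and at 14.1, 2.95, 24.99 and 4.63 CPM in control livers. All high-fat libraries lay above all controls. Of the ketogenic libraries, replicate 4 lay below the highest control. Lcn2 rose by 2.37 ± 0.64 on the log2 scale in ketogenic against control livers (edgeR adjusted p = 0.0314), a fold of 5.16 with a 95% interval of 1.96 to 13.6. It rose by 2.52 ± 0.65 in high-fat against control livers (adjusted p = 0.0252), a fold of 5.72 with an interval of 2.16 to 15.1. The ketogenic call ended without any 1 of ketogenic replicates 1, 2 and 5 and control replicates 2, 3 and 5, at adjusted p = 0.0530 to 0.0865. The high-fat call ended without any 1 of high-fat replicates 3 and 5 and control replicates 3 and 5, at adjusted p = 0.0546 to 0.0667. With only the ketogenic and control libraries in the fit, the ketogenic value of Lcn2 did not pass (adjusted p = 0.0754).

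Since Saa3 and Lcn2 are also made by leukocytes and fat cells, the markers of these cells are given beside them. The 13 neutrophil markers summed to 2.99 to 18.3 CPM in ketogenic livers and 5.75 to 23.3 CPM in high-fat livers. In control livers they summed to 156 CPM in replicate 2 and to at most 7.08 CPM in the others. The neutrophil surface gene Ly6g had a median of 0 in ketogenic and in control livers and of 0.0470 CPM in high-fat livers. Without control replicate 2 the log2 fold change of Lcn2 was 2.47 in ketogenic against control livers (adjusted p = 0.0530) and 2.62 in high-fat against control livers (adjusted p = 0.0473). The 15 macrophage markers summed to 393 to 1411 CPM in ketogenic livers, with replicate 5 highest, and to 529 to 875 CPM in high-fat livers, against 397 to 632 CPM in control livers. Of these 15, Trem2 and Gpnmb, genes of lipid-associated macrophages, rose and the resident Kupffer cell gene Timd4 fell in ketogenic against control livers, and Gpnmb rose in high-fat against control livers. Of all tested genes, 12.1% passed in either direction in ketogenic and 12% in high-fat against control livers. Trem2 was at 1.61 to 24.9 CPM in ketogenic livers (median 4.14), overlapping the controls at 1.07 to 1.64 CPM. Gpnmb was at 6.71 to 120 CPM in ketogenic livers (median 14.8), against 0.742 to 2.32 CPM in control livers. Ketogenic replicate 5 also had the highest Lcn2, and without it Lcn2 was at 2.01 in ketogenic against control livers (adjusted p = 0.0706). The 6 adipocyte markers summed to 21.1 to 179 CPM in ketogenic livers, with replicate 3 highest, and to 19.3 to 54.9 CPM in high-fat livers, against 7.42 to 28.8 CPM in control livers. Of these markers, Cfd was at 8.97 to 168 CPM in ketogenic livers, 10.1 to 41.6 CPM in high-fat livers and 1.54 to 9.37 CPM in control livers, while Adipoq had medians of 0.511 CPM in ketogenic livers, 0.696 CPM in high-fat livers and 1.39 CPM in control livers. The part of these cells in the Saa3 and Lcn2 differences was not tested.

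**Figure D3:**
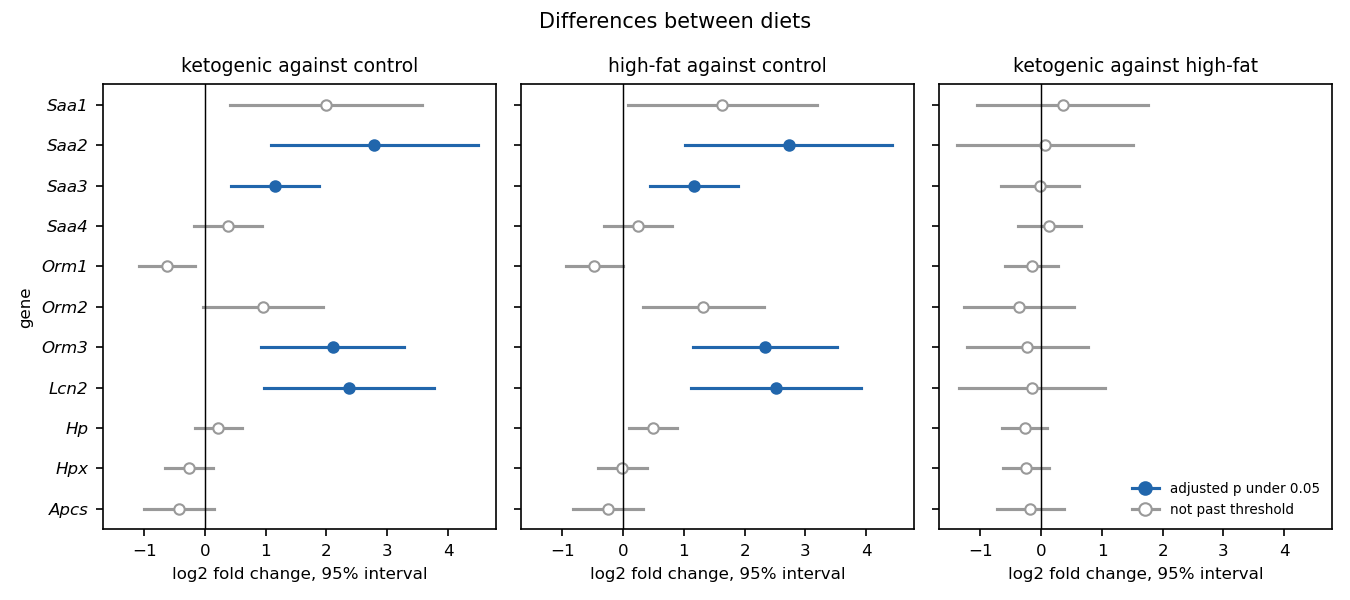
Log2 fold changes with 95% intervals from 1 edgeR fit, with panels for ketogenic against control, high-fat against control and ketogenic against high-fat livers; filled blue points have an adjusted p under 0.05. Saa2, Saa3, Lcn2 and the added copy Orm3 pass in both comparisons with control livers, and no gene shown passes between the ketogenic and high-fat diets.

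Orm1 and Orm2 encode orosomucoid, the alpha-1-acid glycoprotein that carries drugs and lipids in plasma. Orm1 stood at 371, 581, 673, 308 and 491 CPM in ketogenic livers, at 564, 402, 542, 562 and 629 CPM in high-fat livers, and at 810, 630, 979 and 577 CPM in control livers. The groups overlapped, with the fat-rich diets lower on average. Its log2 fold change was -0.63 ± 0.22 in ketogenic against control livers (edgeR adjusted p = 0.0735) and -0.47 ± 0.22 in high-fat against control livers (adjusted p = 0.174). Without ketogenic replicate 3 the ketogenic value was -0.77 and passed (adjusted p = 0.0247).

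Orm2, the much less abundant copy, stood at 23.9, 22.5, 22.9, 8.68 and 40.9 CPM in ketogenic livers, at 17.98, 21.2, 41.1, 30.9 and 42.2 CPM in high-fat livers, and at 7.52, 10.9, 24.3 and 6.34 CPM in control livers. Control replicate 4 lay within the range of both other groups. The log2 fold change was 0.95 ± 0.46 in ketogenic against control livers (edgeR adjusted p = 0.194) and 1.32 ± 0.46 in high-fat against control livers (adjusted p = 0.0808). The high-fat value passed without ketogenic replicate 4 or without control replicate 4, at adjusted p = 0.0244 to 0.0492. The third copy, Orm3, stood at 11.5, 9.42, 9.45, 1.75 and 19.1 CPM in ketogenic livers, at 5.90, 7.52, 10.6, 15.2 and 20.8 CPM in high-fat livers, and at 2.09, 1.88, 3.43 and 2.11 CPM in control livers. Ketogenic replicate 4 lay below every control and the other ketogenic and all high-fat libraries lay above them. Orm3 rose by 2.10 ± 0.55 on the log2 scale in ketogenic against control livers (adjusted p = 0.0228) and by 2.33 ± 0.55 in high-fat against control livers (adjusted p = 0.0151). The ketogenic call of Orm3 ended without any 1 of ketogenic replicate 5 and control replicates 2, 3 and 5, at adjusted p = 0.0528 to 0.0740, and the high-fat call without control replicate 3 (adjusted p = 0.0523).

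The log2 fold changes of Orm1 and of its copies had opposite signs, and Orm1 and Orm2 transcripts are 90.97% identical, with 20.39% of 50-base stretches shared. Orm2 counts came to 6.43, 3.86, 3.40, 2.82 and 8.32% of Orm1 counts in ketogenic livers, to 3.18, 5.26, 7.57, 5.502 and 6.70% in high-fat livers, and to 0.928, 1.74, 2.48 and 1.10% in control livers. Neither fat-rich group overlapped the controls (exact permutation p = 0.00794 for each, adjusted p = 0.0159). Orm3 counts came to 2.11 ± 1.35% of Orm1 counts in ketogenic livers and 2.18 ± 0.861% in high-fat livers, against 0.318 ± 0.0494% in control livers. The exact p was 0.0159 in ketogenic against control livers (adjusted p = 0.0272) and 0.00794 in high-fat against control livers (adjusted p = 0.0159). Under the removal of each library in turn, the ratios Saa2 to Saa1, Orm2 to Orm1 and Orm3 to Orm1 against control livers kept an unadjusted exact p of at most 0.0357. Summed, the orosomucoid copies stood at 519 ± 156 CPM in ketogenic livers and 583 ± 94.8 CPM in high-fat livers, against 764 ± 190 CPM in control livers. The sum had a log2 fold change of -0.56 in ketogenic against control livers (edgeR adjusted p = 0.112) and of -0.39 in high-fat against control livers (adjusted p = 0.270), following the abundant Orm1.

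Hp encodes haptoglobin, which binds free haemoglobin, and Hpx encodes hemopexin, which binds free haem. Hp stood at 3327, 3840, 4565, 3251 and 3823 CPM in ketogenic livers, at 4558, 3484, 4367, 4611 and 5731 CPM in high-fat livers, and at 3485, 2350, 4264 and 2816 CPM in control livers. The groups overlapped, with the high-fat libraries highest on average. The log2 fold change of Hp was 0.22 in ketogenic against control livers (edgeR adjusted p = 0.463) and 0.49 ± 0.19 in high-fat against control livers (adjusted p = 0.0946). Scaled by library totals, the high-fat value of Hp was 0.62 and passed (adjusted p = 0.0286), with the median of all genes moved to 0.13. Hpx ranged over 3426 to 5320 CPM in ketogenic livers and 3698 to 6259 CPM in high-fat livers, against 4182 to 6360 CPM in control livers. Its log2 fold change was -0.26 in ketogenic against control livers (adjusted p = 0.380) and -0.01 in high-fat against control livers (adjusted p = 0.978), and with library totals it was 0.11 in high-fat against control livers.

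Apcs encodes serum amyloid P component, a pentraxin that is a main acute phase protein of the mouse. It ranged over 44.4 to 108 CPM in ketogenic livers and 61.6 to 95.7 CPM in high-fat livers, against 59.6 to 131 CPM in control livers. The log2 fold change was -0.43 in ketogenic against control livers (edgeR adjusted p = 0.323) and -0.25 in high-fat against control livers (adjusted p = 0.595). Every diet's range overlapped the others.

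Divided by transcript length, the order of levels in control livers, as CPM per kilobase, began with Hpx at 3483 ± 597, Hp at 2400 ± 619 and Orm1 at 967 ± 236 (SD, n = 4). Saa4 followed at 167 ± 36.2, Saa1 at 105 ± 45.1 and Apcs at 95.3 ± 34.2. Saa2 stood at 29.4 ± 19.2, Orm2 at 15.8 ± 10.6, Lcn2 at 12.8 ± 11.1 and Saa3 at 7.05 ± 1.53. In this order the neighbours Saa1 and Apcs, Saa2 and Orm2, Orm2 and Lcn2, and Lcn2 and Saa3 differed by less than the larger of their SDs. In high-fat livers Saa1, at 326 ± 71.6 CPM per kilobase, stood above Saa4 at 199 ± 65.9, and Saa2 was at 194 ± 46.4. In ketogenic livers the means of Saa1 and Saa2 were 417 ± 542 and 203 ± 247 CPM per kilobase, spreads wider than the means. The length of Saa4, 2094 bases, comes from 1 annotated transcript that is longer than those of the other copies, so its place in the order is uncertain.

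Between the ketogenic and the high-fat diet no member passed the threshold. In this comparison 0.0615% of all tested genes did. The count of members was 0 with edgeR and 0 with DESeq2, which called 173 of all genes here. It was also 0 at an unadjusted edgeR p under 0.05, which 8.7% of all genes reached. The log2 fold change of ketogenic against high-fat livers was 0.35 for Saa1, with a 95% interval of -1.05 to 1.76. For Saa2 it was 0.06 with an interval of -1.39 to 1.51, and for Lcn2 -0.15 with an interval of -1.35 to 1.05. The interval was narrower for Hp, at -0.27 with bounds of -0.64 and 0.09. These intervals leave room for differences of more than 2-fold in either direction for Saa1, Saa2 and Lcn2, so the diets are not shown to act alike.

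Much of the spread lay between libraries of the same diet, and some libraries were highest or lowest for most members. The counts that follow were not set beside those of all tested genes, and copies may share reads. They therefore do not show that the members moved together more than other genes did. Ketogenic replicate 3 was above its diet's mean for all 10 members and highest for 6 of them. Ketogenic replicate 4 was lowest for 7. High-fat replicate 5 was highest for 7 members and high-fat replicate 2 lowest for 7. Control replicate 4 was above its diet's mean for all 10 and highest for 9. The spread was wide for Saa1 and Saa2 in ketogenic livers, where the highest library was 13.4 times the lowest for Saa1 and 14.5 times for Saa2. For Saa1 it was 1.88 times in high-fat livers and 2.37 times in control livers, and for Saa2 1.97 times in high-fat livers and 3.51 times in control livers.

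**Figure D4:**
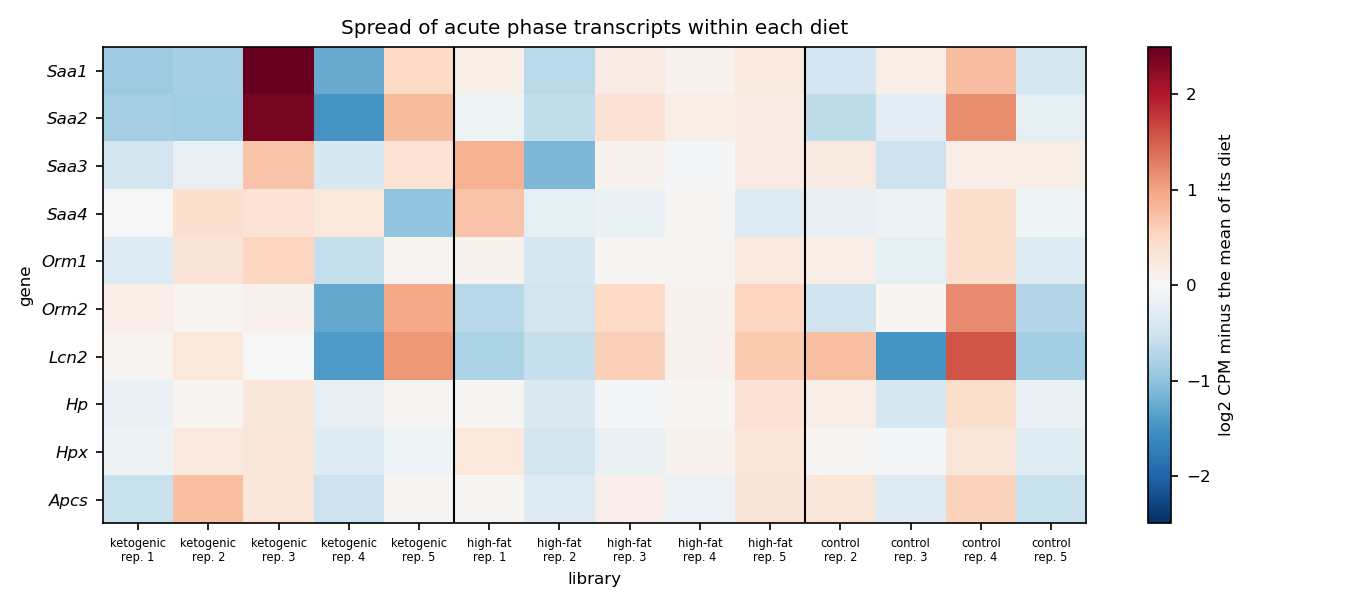
Log2 CPM of each gene in each library minus the mean of its diet, red above and blue below, with ketogenic, high-fat and control libraries from left to right. Ketogenic replicate 3 and control replicate 4 are above the mean of their diet for all 10 members.

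The library numbers in the labels fall into 2 runs, 2 to 9 and 13 to 25, and the lower run holds 1 control library, so its comparisons with control livers are given as values and were not tested. In the higher run, with 3 libraries per diet, Saa2 was at 3.12 in ketogenic against control livers (edgeR adjusted p = 0.0732) and 2.74 in high-fat against control livers (adjusted p = 0.0838). Saa3 passed in both, at 1.43 in ketogenic (adjusted p = 0.0218) and 1.19 in high-fat against control livers (adjusted p = 0.0353). Lcn2 was at 2.49 (adjusted p = 0.130) in ketogenic and 2.98 (adjusted p = 0.0720) in high-fat against control livers. In the lower run, mean Saa2 was 40.6 CPM in ketogenic livers (n = 2) and 90.7 CPM in high-fat livers (n = 2), against 10.0 CPM in the control library. Mean Lcn2 was 59.1 CPM in ketogenic livers and 38.6 CPM in high-fat livers, against 14.1 CPM in that library. That library is control replicate 2, where neutrophil markers summed to 156 CPM, against at most 7.08 CPM in the other controls used. Pancreatic acinar markers summed to 1707 CPM in it, against at most 169 CPM in the other controls used. With the run as a covariate over all 14 libraries, the calls of Saa2, Saa3 and Lcn2 held in both comparisons.

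The list of other positive acute phase genes, 31 of which 30 were tested, was divided. In ketogenic against control livers 3 rose and 4 fell, and in high-fat against control livers 5 rose. Of all tested genes, 12.1% passed in either direction in ketogenic and 12% in high-fat against control livers. The list had median log2 fold changes of -0.33 in ketogenic and -0.22 in high-fat livers, beside 0.03 and 0.01 over all genes. Il1rn, the interleukin-1 receptor antagonist, rose to 6.26 ± 4.98 CPM in ketogenic livers and 7.42 ± 2.496 CPM in high-fat livers (SD, n = 5 each), against 0.627 ± 0.228 CPM in control livers (n = 4). The metallothionein Mt2, a metal-binding protein, rose by 2.27 ± 0.60 in ketogenic and by 3.13 ± 0.61 in high-fat against control livers on the log2 scale. Its relative Mt1 rose by 2.09 ± 0.40 in high-fat against control livers (edgeR adjusted p = 0.00487), and the metalloreductase Steap4 by 0.63 ± 0.18 (adjusted p = 0.0315). Orm3, described above, is the remaining gene that rose in both.

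The 4 genes of this list that fell in ketogenic against control livers were the mannose-binding lectin Mbl2, the fibrinogen chains Fgb and Fgg, and complement factor B, Cfb. Mbl2 was at 148 ± 34.6 CPM in ketogenic livers and 298 ± 43.7 CPM in high-fat livers, against 362 ± 58.2 CPM in control livers. It fell by 1.29 ± 0.18 on the log2 scale in ketogenic against control livers (edgeR adjusted p = 0.000231) and also by 1.01 ± 0.17 in ketogenic against high-fat livers (adjusted p = 0.0322). Fgb was at -0.65 ± 0.16 and Fgg at -0.56 ± 0.17 in ketogenic against control livers, and Cfb at -0.37 ± 0.12.

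Of 13 negative acute phase genes, 2 fell and 1 rose in each comparison with control livers. The share of all tested genes passing was 12.1% in ketogenic and 12% in high-fat against control livers. Medians of the list were -0.38 in ketogenic and -0.39 in high-fat livers, beside 0.03 and 0.01 over all genes. Ahsg, which encodes the mineral-binding fetuin-A, was at 4854 ± 1095 CPM in ketogenic livers and 4416 ± 1217 CPM in high-fat livers, against 8027 ± 430 CPM in control livers. It fell by 0.73 ± 0.20 (edgeR adjusted p = 0.0277) in ketogenic and by 0.86 ± 0.20 (adjusted p = 0.0124) in high-fat against control livers. The coagulation factor gene F12 fell by 0.45 ± 0.14 in ketogenic against control livers, and the growth factor gene Igf1 fell by 0.45 ± 0.13 in high-fat against control livers. Serpina7, the thyroxine-binding globulin, rose by 1.301 ± 0.30 in ketogenic and by 1.80 ± 0.30 in high-fat against control livers.

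Among 38 genes of interleukin-6, interleukin-1 and STAT3 signalling, 36 were tested. In ketogenic against control livers 1 rose and 2 fell, and in high-fat against control livers 2 rose and 1 fell. The share of all tested genes passing was 12.1% in ketogenic and 12% in high-fat against control livers. Medians of the list were 0.03 in ketogenic and 0.06 in high-fat livers, beside 0.03 and 0.01 over all genes. The AP-1 subunit gene Junb rose by 0.83 ± 0.22 in ketogenic (edgeR adjusted p = 0.0212) and by 0.91 ± 0.22 in high-fat against control livers (adjusted p = 0.0147). The receptor gene Lifr, which pairs with gp130, fell by 0.91 ± 0.21 in ketogenic and by 1.22 ± 0.21 in high-fat against control livers. Cebpa fell by 0.38 ± 0.12 in ketogenic against control livers, and the NF-kappaB subunit gene Nfkb2 rose by 1.07 ± 0.30 in high-fat against control livers.

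Receptors and enzymes that handle the proteins of the members, or the haem they carry, made a list of 13, of which 12 were tested. In ketogenic against control livers 1 rose and 1 fell, and in high-fat against control livers 2 rose. The share of all tested genes passing was 12.1% in ketogenic and 12% in high-fat against control livers. Medians of the list were 0.31 in ketogenic and 0.29 in high-fat livers, beside 0.03 and 0.01 over all genes. Cd163, the macrophage receptor for haptoglobin bound to haemoglobin, was at 5.12 ± 4.73 CPM in ketogenic livers and 7.33 ± 3.42 CPM in high-fat livers, against 29.4 ± 7.93 CPM in control livers. It fell by 2.53 ± 0.66 in ketogenic against control livers (edgeR adjusted p = 0.0265), and its value in high-fat against control livers was -2.00 ± 0.65 (adjusted p = 0.0660). Cd36, a scavenger receptor that binds serum amyloid A and fatty acids, rose by 2.99 ± 0.29 in ketogenic and by 3.12 ± 0.29 in high-fat against control livers. Hmox1, the haem oxygenase, rose by 0.85 ± 0.21 in high-fat against control livers.

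**Figure D5:**
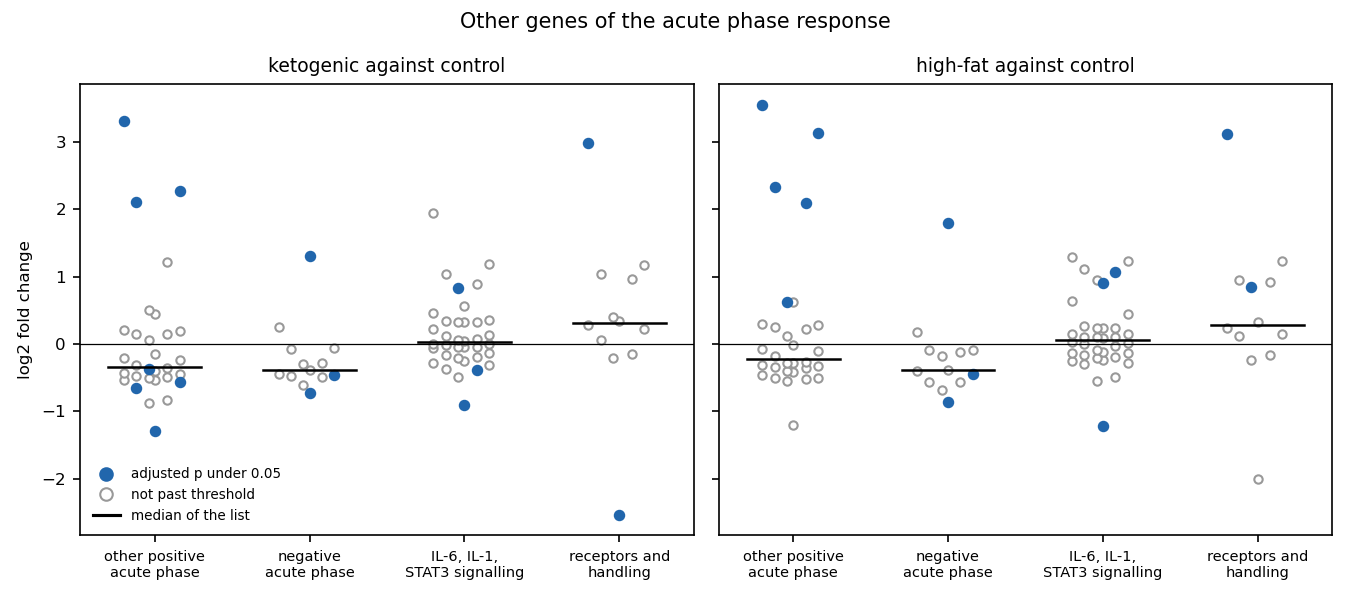
Log2 fold changes of the tested genes of 4 related lists, for ketogenic against control and high-fat against control livers; each point is a gene, filled where the adjusted p is under 0.05, and lines are list medians. The other positive acute phase genes have medians of -0.33 in ketogenic and -0.22 in high-fat against control livers, with a few genes above 2.

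The genes outside the 10 whose level followed the members' mean pattern most closely were sought by the mean absolute difference in standardised log2 CPM over the 14 libraries. The nearest was Lsm3, an RNA-binding Sm-like protein gene, at 0.413 SD, followed by the zinc transporter gene Slc39a1 at 0.459 SD and the liver-secreted fibrinogen-like gene Fgl1 at 0.472 SD. Commd5 at 0.488 SD, Fbxo5 at 0.500 SD and Ecscr at 0.501 SD came next, against a median of 0.939 SD over all genes. The log2 fold changes in ketogenic and high-fat against control livers were 0.09 and 0.22 for Lsm3, and 0.06 and 0.19 for Slc39a1. They were 0.03 and 0.08 for Fgl1, 0.25 and 0.58 for Commd5, 0.60 and 0.84 for Fbxo5 and 0.68 and 0.88 for Ecscr. Of these values, only that of Ecscr in high-fat against control livers passed (edgeR adjusted p = 0.0262). A small distance therefore does not mean that a gene was called between diets. Among the members themselves the distance from their mean pattern was smallest for Hp, at 0.290 SD, and largest for Orm1, at 0.800 SD. Each member is part of that mean, which shortens its distance, so these values cannot be set beside those of genes outside the 10.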

How the data were processed

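Poly(A) RNA of mouse liver was sequenced from directional libraries, per the labels' protocols. The deposited table holds whole-number counts per Ensembl gene, raw counts as the authors deposited them. Tools listed, per the submitters' processing notes, were featureCounts 1.6, STAR 2.7.9a, DESeq2 1.36.0 and cutadapt 1.16, with build GRCm39. For the strand setting, the annotation and reads that match several copies, nothing is stated there.

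Genes were named from a table of gene IDs and symbols, which matched 91.4% of IDs and 98.2% of tested genes. From the counts, edgeR 4.0.16 in R 4.3.3 (filterByExpr with a minimum count of 10 and a minimum total of 15, TMM factors of 0.886 to 1.215, robust quasi-likelihood fit, no covariates) gave log2 fold changes, and the standard error is the log2 fold change divided by the root of F. The biological coefficient of variation was 0.25. Genes named are all 10 members, Orm3, from each list and comparison up to 6 called genes in order of adjusted p, and the 6 nearest patterns. Marker genes in the text were picked after their values were seen. The members and lists were chosen with earlier results of these data known. Lengths are those of 1 protein-coding GENCODE transcript per gene. Replicate numbers were checked for pairing: 3 of 13 same-numbered pairs across diets had deviations correlated over 0.1, so the libraries were treated as unpaired. No libraries held identical counts (0 pairs). Alternatives were other scaling, DESeq2 1.42.0, no filter, only the diets compared, a replicate block, library numbers, and leaving out each library. The procedure was tested on simulated data.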

Additional observations from a re-analysis of the deposited data

Results flagged for a closer look

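A library far from the others of its diet was found for 8 of 45 groups. A group held the CPM of 1 gene, or 1 copy ratio, in the libraries of 1 diet. All 8 were groups of gene CPM. Chance marks about 1 in 20 groups if they are independent and their values normally distributed. These groups share libraries, and copies may share reads, so that rate is only a rough guide. In ketogenic livers, replicate 3 was high for Saa1, at 835 CPM against 62.3 to 209 CPM in the others, and for Saa2, at 381 CPM against 26.2 to 127 CPM. In high-fat livers, replicate 2 was low for Saa1, at 122 CPM against 207 to 229 CPM in the others, and replicate 1 was high for Saa4, at 656 CPM against 318 to 408 CPM. In control livers, replicate 4 was high for Saa2 at 35.1 CPM against 10.0 to 13.2 CPM in the others, for Saa4 at 463 CPM against 301 to 319 CPM, and for Orm3 at 3.43 CPM against 1.88 to 2.11 CPM. Control replicate 3 was low for Saa3, at 2.65 CPM against 4.23 to 4.47 CPM in the others.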

How the results depend on the processing

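The number of the 10 members called, 3 in each comparison with control livers, was in ketogenic livers 5 with DESeq2, 0 without a filter on low counts, 1 with only the 2 diets compared in the fit and 1 with only libraries numbered 13 to 25. In high-fat livers it was 0 without a filter and 1 with only libraries numbered 13 to 25. With the replicate block the count was 0 in ketogenic and 1 in high-fat against control livers. Of all genes, the replicate block called 1297 in ketogenic and 1380 in high-fat against control livers. The fit of libraries 13 to 25 called 795 in ketogenic and 1106 in high-fat against control livers. Other scaling and the library number run as a covariate gave 3 or 4. Leaving out 1 library gave 0 to 3 in ketogenic and 0 to 4 in high-fat against control livers, and it was 0 in ketogenic against control livers without ketogenic replicate 5 or control replicate 2, 3 or 5, and 0 in high-fat against control livers without high-fat replicate 3 or 5 or control replicate 3 or 5. It was 1 in ketogenic against control livers without high-fat replicate 3, and 1 in high-fat against control livers without high-fat replicate 4 or control replicate 2. The cause of these changes in the count was not tested. The unfiltered fit adjusts over more genes, and its standard errors were also larger. In ketogenic against control livers they were 0.818 for Saa2, 0.675 for Lcn2 and 0.351 for Saa3, against 0.784, 0.643 and 0.339 with the filter. The count between ketogenic and high-fat livers stayed at 0 in all of these. Signs turned only where no call was made. In high-fat against control livers, Hpx was at 0.11 by library totals and 0.046 in libraries 13 to 25, and -0.11 to 0.10 with 1 library left out, and Saa4 was at -0.023 in libraries 13 to 25. In ketogenic against high-fat livers, Saa3 was at 0.036 by library totals, 0.040 with the replicate block and 0.24 in libraries 13 to 25. With the replicate block Saa1 was at -0.22, Saa2 at -0.38 and their sum at -0.28, and with the library number run Saa2 was at -0.20 and the sum at -0.015. With 1 library left out, ketogenic against high-fat values spanned -0.87 to 0.61 for Saa1, -1.004 to 0.33 for Saa2, -0.92 to 0.51 for their sum, -0.23 to 0.24 for Saa3, -0.49 to 0.073 for Lcn2 and -0.59 to 0.061 for Orm3. The log2 ratio of Orm3 to Orm1 in that comparison spanned -0.52 to 0.17, the highest without ketogenic replicate 4. In libraries 13 to 25 the copy ratios had 3 libraries a diet and could not go below an exact p of 0.1. Library totals moved the median gene to 0.21 in ketogenic and 0.13 in high-fat against control livers. Saa3 and Orm3 rest on the fewest counts, 52 to 284 and 37 to 523 per library.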

Other observations

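The control library that the submitters set aside as contaminated, replicate 1, is given here as values only. In CPM by library total, without TMM scaling, it held 14.6 for Saa1, against 39.3 to 92.5 in the other controls, and 1.27 for Lcn2, against 2.84 to 22.7. Saa2 was at 3.40 against 9.60 to 31.9, and Orm2 at 3.40 against 5.61 to 22.1. Saa4, Orm1, Hp, Hpx and Orm3 were also below the other controls. Saa3, at 3.09 against 2.55 to 4.29, and Apcs, at 57.7 against 52.8 to 119, lay inside their range. Pancreatic acinar markers made up 1.55% of the counts of this library. In the libraries used, the same markers summed to 6.88 to 324 CPM in ketogenic livers and 106 to 744 CPM in high-fat livers. In control livers they summed to 1707 CPM in replicate 2, or 0.164% of its counts, and to 26.8 to 169 CPM in the others.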
